A study of Mus musculus with 6 samples.

Results

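The genes described here are the chemokines and chemokine receptors of mouse fat. They were chosen by symbol: names that begin with Ccl, Cxcl, Ccr, Cxcr, Cx3c, Xcr or Ackr followed by a number, together with Xcl1. Of 18193 genes named on the array, 54 met the rule, 33 of them ligands, 17 conventional receptors and 4 atypical receptors. Each gene was read from 1 Affymetrix probe set, the one with the highest mean log2 signal over the arrays, and 20 of the 54 had further probe sets.

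The arrays came from a study of how loss of Kdm4b, a histone demethylase gene, changes transcripts in fat as mice become obese. RNA was taken from epididymal fat, subcutaneous fat and brown fat (labelled Epi, SubQ and BAT) of male mice aged 2 months, either wild type (WT) or knockout for Kdm4b in the whole body (KO). All animals ate chow, lived at room temperature and were fasted for 6 hours before sampling. There was 1 array for each depot and genotype, 6 in all. The labels name neither the deleted exons nor the number of animals behind a sample, and they do not tell whether depots share animals.

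Chemokines are small secreted proteins that bind receptors of the G protein-coupled family and guide white blood cells into and through tissue. Inflammatory chemokines are induced by cytokines and pathogens and recruit monocytes, neutrophils and activated lymphocytes, whereas homeostatic chemokines place lymphocytes and stem cells in lymph nodes, marrow and barrier tissues. Atypical receptors bind chemokines without passing on the usual G protein signal and remove or present them. In white fat, macrophages and stromal cells are known sources, and the Ccl2 and Ccr2 pair is known for drawing monocytes into fat during obesity.

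With 1 array per genotype in each depot, KO over WT differences have no replicate and no test, and are described by size on the log2 scale. The deposited MAS5 signals were raised to a floor of 63.2, so folds that rest on a floored array are lower bounds, written "at least". Within a depot the available error was how far the probe sets of a gene differ among themselves, with SDs of 0.31, 0.32 and 0.32 on the log2 scale in epididymal, subcutaneous and brown fat, and it leaves out the spread between mice. Among genes of the set for which both arrays of a depot exceeded the floor on at least 2 probe sets, these differed in sign for 5 of 11 in epididymal fat (Ackr2, Ackr4, Ccr2, Cxcl12 and Cxcl16), 4 of 14 in subcutaneous fat (Ackr2, Ccl25, Ccr2 and Cxcl16) and 4 of 10 in brown fat (Ackr4, Ccl9, Cxcl9 and Cxcl13). Kdm4b had a lower signal in each KO array, with log2 differences from -0.80 to -0.27, read from a probe set that need not lie in the deleted part. Brown adipocyte markers summed to 88955 and 102690 in brown fat against 5680 to 11642 in the white depots. Lymphocyte and skeletal muscle transcripts stood out in subcutaneous fat, where muscle markers summed to 44365 and 47224, and muscle markers went from 13451 in the WT to 437 in the KO array of brown fat. The RNA came from whole tissue, so fewer cells of a type and less RNA per cell cannot be told apart.

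Of the 54 genes, 24 had a signal above the floor on all 6 arrays, 9 on 1 or 2 arrays and 8 on none. Those at or under the floor everywhere were the inflammatory ligands Ccl1, Ccl3, Ccl20, Cxcl3, Cxcl5 and Cxcl11 and the receptors Ccr3 and Ccr8, and nothing further can be said of them. Between 31 and 42 of the 54 lay above the floor on an array, with 33 and 37 in epididymal WT and KO, 41 and 42 in subcutaneous WT and KO, and 32 and 31 in brown WT and KO. Signals of different genes come from different probes and were not set against each other.

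**Figure D1:**
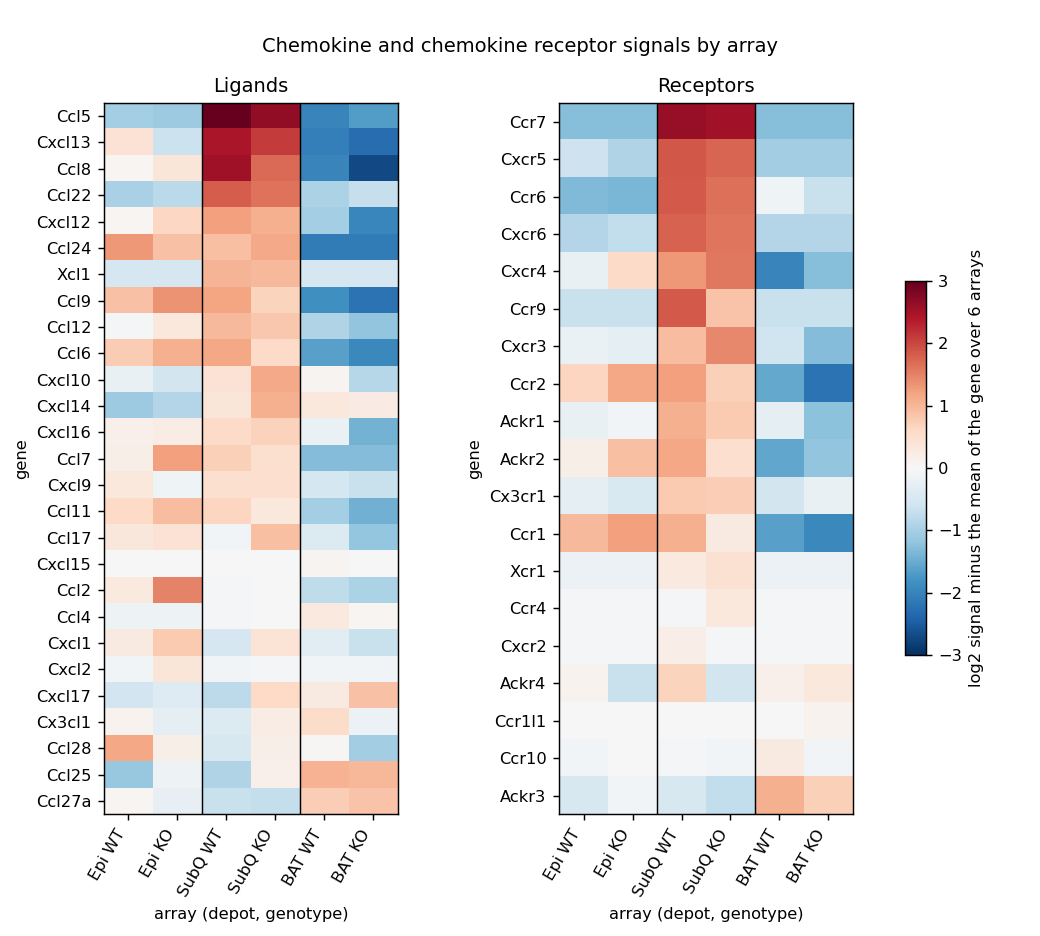
Log2 signal of each ligand (left) and receptor (right) on the 6 arrays, after the floor, minus the gene's mean over the arrays, for the 46 genes that exceeded the floor on 1 or more arrays. Rows are ordered by their subcutaneous value, and most upper rows are red in the SubQ columns and blue in the BAT columns, while rows at the foot such as Ackr3, Ccl25 and Ccl27a are red in the BAT columns.

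Several of the ligands lie side by side in the genome. In the RefSeq gene table of assembly GRCm38.p6, Ccl2, Ccl7, Ccl11, Ccl12, Ccl8 and Ccl1 are consecutive on chromosome 11, as are Ccl5, Ccl9, Ccl6, Ccl3 and Ccl4. RefSeq promoter windows were found for 41 of the 54 genes. Those of 5 ligands are shown because all 5 were lower in brown than in white fat and, for Ccl12, Ccl8, Ccl6 and Ccl9, because the KO over WT differences of these clustered genes had the same signs in each depot. Each is the 250 bases before the start of transcription, 5′ to 3′ on the gene's strand, with matches to a kappaB motif, the ETS letters AGGAAGT and the TATA letters TATAAA, on either strand, in capitals.
Ccl12, chr11:82101595-82101844, plus strand: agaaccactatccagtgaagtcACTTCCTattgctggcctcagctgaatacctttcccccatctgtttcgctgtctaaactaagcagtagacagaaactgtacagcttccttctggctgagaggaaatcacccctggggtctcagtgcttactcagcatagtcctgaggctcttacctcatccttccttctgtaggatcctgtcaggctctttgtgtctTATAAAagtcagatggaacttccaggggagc
Ccl8, chr11:82114935-82115184, plus strand: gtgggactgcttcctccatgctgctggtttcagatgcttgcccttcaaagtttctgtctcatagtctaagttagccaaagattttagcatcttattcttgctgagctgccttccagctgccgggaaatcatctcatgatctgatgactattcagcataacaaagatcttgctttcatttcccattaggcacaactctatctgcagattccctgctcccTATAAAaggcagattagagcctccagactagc
Ccl9, chr11:83578637-83578886, minus strand: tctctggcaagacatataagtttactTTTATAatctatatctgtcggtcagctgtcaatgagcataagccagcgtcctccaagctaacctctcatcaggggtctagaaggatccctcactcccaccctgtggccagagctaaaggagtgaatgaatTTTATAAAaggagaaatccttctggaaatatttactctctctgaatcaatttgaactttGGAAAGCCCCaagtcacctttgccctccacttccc
Ccl6, chr11:83593088-83593337, minus strand: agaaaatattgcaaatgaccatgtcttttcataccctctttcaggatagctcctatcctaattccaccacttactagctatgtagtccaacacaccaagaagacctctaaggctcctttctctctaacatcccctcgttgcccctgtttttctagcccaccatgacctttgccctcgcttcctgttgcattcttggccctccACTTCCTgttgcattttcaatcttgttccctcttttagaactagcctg
Cxcl13, chr5:95956689-95956938, plus strand: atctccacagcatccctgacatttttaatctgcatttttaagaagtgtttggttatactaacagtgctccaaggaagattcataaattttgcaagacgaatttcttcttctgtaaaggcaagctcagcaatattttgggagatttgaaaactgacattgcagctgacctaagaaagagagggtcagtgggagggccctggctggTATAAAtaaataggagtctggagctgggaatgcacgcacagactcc

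The TATA letters began at -31 in Ccl12, -32 in Ccl8 and -46 in Cxcl13, counted back from the start. In Ccl9 they matched at -224 and -94, the latter overlapping a further match on the other strand, and Ccl6 had none. The ETS letters matched at -228 in Ccl12 and -48 in Ccl6, and the kappaB motif at -35 in Ccl9. Over the whole set, 14 of 41 genes held the TATA letters, 11 the kappaB motif and 7 the ETS letters, and 2 (Cxcl10 and Cxcl14) the interferon response motif (GAAA, any 2 bases, GAAA). Of all 32851 windows of this length, 12.4% held the TATA letters, 7.25% the kappaB motif, 7.69% the ETS letters and 2.98% the interferon response motif. The kappaB matches were those of Ccl1, Ccl9, Ccl20, Cxcl1, Cxcl2, Cxcl3, Cxcl10, Ackr2, Ccr1, Ccr3 and Ccr6, with a pair overlapping at -71 and -70 in Cxcl1. A match is only a run of letters in the window.

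In epididymal fat the monocyte chemoattractants Ccl2 and Ccl7 were higher in the KO array. Ccl2, the main ligand of Ccr2, had signals of 295 in WT and 672 in KO epididymal fat, 229.8 and 241 in subcutaneous fat, and 141 and 126 in brown fat. The epididymal KO array was the highest of the 6 and the other 5 lay within 126 to 295, so the difference of 1.19 on the log2 scale (2.28-fold) was seen in epididymal fat, beside 0.07 in subcutaneous and -0.17 in brown fat. Ccl7, its neighbour on chromosome 11 and also a Ccr2 ligand, went from 177 to 362 in epididymal fat (1.04, or 2.05-fold), with 255 and 216 in subcutaneous fat and 60.5 and 59.9, both under the floor, in brown fat. By the brightest probe sets and the deposited scaling, no other chemokine or receptor was at least 2-fold higher in that depot. Ccl2 and Ccl7 were 2 of 38 genes of the set measured there, against 0.870% of all measured genes. Ccl25 also passed 2-fold there after quantile normalization and after median centring, and Cxcl1 did without cross-hybridising probe sets.

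Ccl8 and Ccl12, from the same gene cluster, differed less between the epididymal arrays. Ccl8, grouped here with the Ccr2 ligands although the mouse protein is also known as a Ccr8 ligand, had signals of 2128 and 2597 in epididymal WT and KO, 11797 and 6583 in subcutaneous fat, and 518 and 312 in brown fat. Its KO over WT differences were 0.29, -0.84 and -0.73 on the log2 scale, so the KO array was the higher one in epididymal fat and the lower one elsewhere. Ccl12 followed the same signs with 186 and 236, then 372 and 334, then 102 and 83.8. All 4 ligands of this group were thus higher in the epididymal KO array, with a median of 0.69, and 3 of 4 were lower in the subcutaneous one, with a median of -0.20 (all 4 after median centring).

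**Figure D2:**
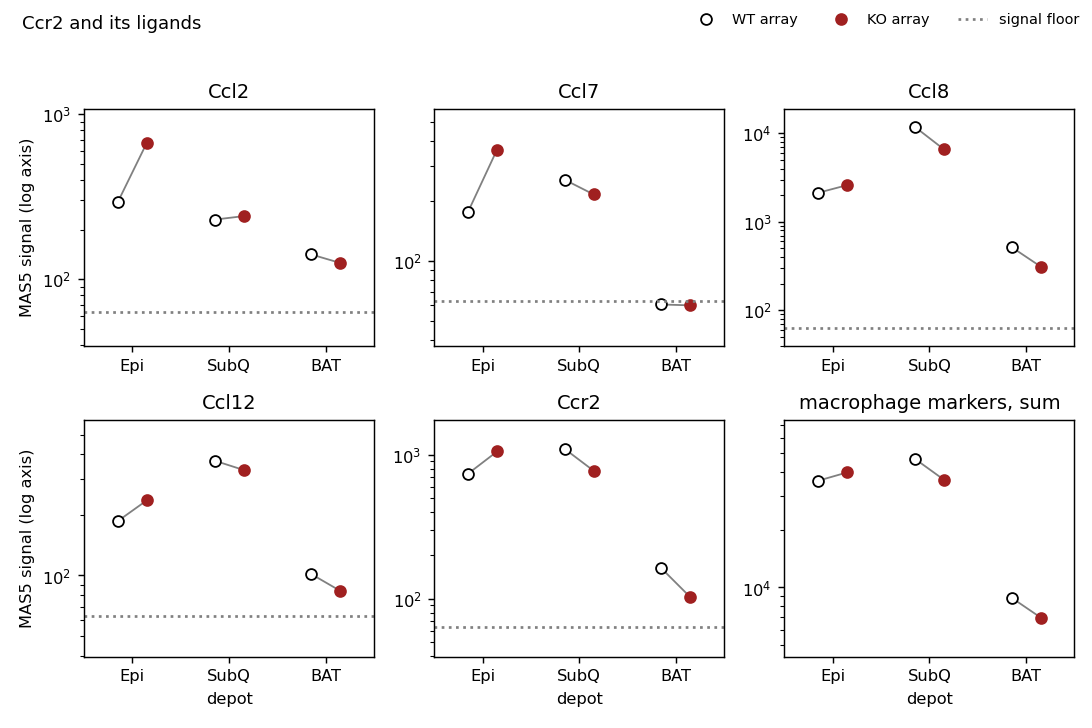
Signals of Ccr2, of 4 ligands grouped with it and the summed signal of 8 macrophage markers, on log axes, for WT (open) and KO (filled) arrays of each depot, 1 array per point, with the floor of 63.2 dotted. The epididymal KO points of Ccl2 (672) and Ccl7 (362) are the highest in their panels, while the other panels peak in subcutaneous WT fat.

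Ccr2, the receptor that carries monocytes toward these ligands, had signals of 738 and 1054 in epididymal fat, 1097 and 772 in subcutaneous fat, and 162 and 102 in brown fat, for WT and KO. The differences were 0.51, -0.51 and -0.67 on the log2 scale by that probe set. Its other probe sets did not all share the sign: 2 further ones above the floor gave 0.02 and -0.21 in epididymal fat and -0.16 and 0.14 in subcutaneous fat. Another, dim one, with the WT arrays under the floor, read 53.4 and 129 in epididymal and 29.0 and 105 in subcutaneous fat, a log2 difference of at least 1.03 and at least 0.74. Macrophage markers summed to 35893 and 39639 in epididymal, 46615 and 36295 in subcutaneous, and 8841 and 6978 in brown fat, which are log2 differences of 0.14, -0.36 and -0.34. All 8 macrophage markers were above the floor on the 4 white arrays and 7 on both brown arrays. Their part in the Ccr2 and ligand differences was not tested.

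By their medians, ligands and receptors both lay higher in the KO array of epididymal fat and lower in that of brown fat. In the KO array of epididymal fat 17 of 25 measured ligands were higher (median 0.19) and 8 of 13 receptors (median 0.15), where 46.7% of all measured genes were higher (median -0.02). In brown fat 19 of 23 ligands were lower (median -0.28) and 7 of 12 receptors (median -0.32), where 53.6% of all genes were lower (median -0.03). The receptor count there (58.3%) was near the share of all genes, and only the receptor median stood apart. In subcutaneous fat the ligands were split, 14 of 26 higher with a median of 0.02, while 14 of 18 receptors were lower with a median of -0.17, where 45.3% of all genes were lower (median 0.04). Centring the arrays on their medians moved the median of all genes to 0.11, -0.12 and 0.11 in epididymal, subcutaneous and brown fat. The ligand median in subcutaneous fat turned to -0.12 on that scale and to -0.05 after quantile normalization, while the other 5 medians kept their signs. Measured from the median of all genes after centring, ligands lay at 0.22, -0.01 and -0.23 and receptors at 0.18, -0.19 and -0.34. Adipose stroma markers, whose cells also make chemokines, summed to log2 differences of 0.23, -0.18 and -0.41, and their part was not tested. Most of the sum in white fat was Dpt. In the epididymal KO array Pdgfra (-0.38) and Dpp4 (-0.09) were lower, while Dpt, Pi16, Col1a1 and Cd34 were higher. All of these markers were lower in the subcutaneous and brown KO arrays.

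**Figure D3:**
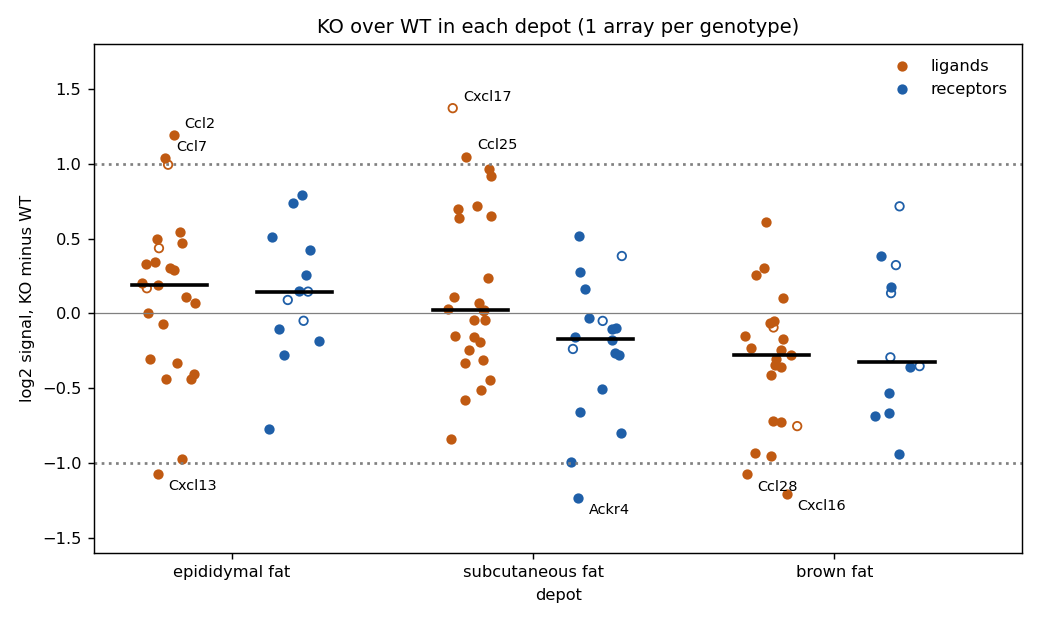
Log2 signal of KO minus WT for each measured ligand (orange) and receptor (blue) in the 3 depots, 1 array per genotype. Black bars are medians (0.19 and 0.15 in epididymal, 0.02 and -0.17 in subcutaneous, -0.28 and -0.32 in brown fat), open circles are lower bounds, and dotted lines mark 2-fold.

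Few genes of the set passed 2-fold in the other direction or the other depots. In epididymal fat Cxcl13, which draws B cells into follicles through Cxcr5, went from 1340.3 to 637, 2.10-fold lower, and its second probe set gave -1.03 beside -1.07 (-0.94 after median centring, short of 2-fold). It was 1 of 38, against 1.41% of all measured genes. Its signals were 5372 and 4275 in subcutaneous and 238 and 203 in brown fat, so the KO array was lower in each depot by that probe set, whereas the second one read 249 and 273 in brown fat. B cell markers were lower in the epididymal KO array too, summing to 967 against 1335, and their part was not tested.

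In subcutaneous fat Ccl25 and Cxcl17 passed 2-fold upward in the KO array, 2 of 44 measured genes against 2.20% of all genes, and Ackr4 passed it downward, 1 of 44 against 0.722%. For Cxcl14 the second probe set passed it upward too, with 450 and 954 (1.08), while the brightest one gave 0.71. Ccl25, which attracts T cells to thymus and gut through Ccr9, had signals of 74.6 and 154, but its other probe set read 109.7 and 77.7, a log2 difference of -0.50. Its 1.05 became 0.84 after quantile normalization and 0.90 after median centring. Cxcl17, a chemokine of mucosal surfaces, went from 59.1, under the floor, to 163, at least 2.59-fold. Its signals were 73.1 and 83.3 in epididymal and 129.6 and 198 in brown fat, higher in KO in each pair. Ackr4, which removes Ccl19, Ccl21 and Ccl25, went from 517 to 219.8 (2.35-fold), while a second probe set gave -0.70 and the third was under the floor. The mean of all probe sets gave 0.27 for Ccl25 and -0.08 for Ackr4, so neither was 2-fold different on that reading. Ackr2, read from its brightest probe set, had signals of 423 and 706 in epididymal and 837 and 531 in subcutaneous fat (0.74 and -0.66), while a dim one gave -0.18 and 0.13. Another dim one kept the signs of the brightest, with 54.8 and 71.7 in epididymal and 109 and 10.8 in subcutaneous fat. In each pair the lower value was under the floor. By the mean of all probe sets, taken before the floor, Ackr2 and Ccr1 passed 2-fold downward in subcutaneous fat.

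In brown fat Ccl28 and Cxcl16 passed 2-fold downward in the KO array, 2 of 35 measured genes against 2.43% of all genes, and 0 were 2-fold higher, against 1.10%. Cxcl16, a membrane-bound ligand of Cxcr6, had signals of 351 and 369 in epididymal fat, 475 and 512 in subcutaneous fat, and 275 and 119 in brown fat. The brown KO array was the lowest of the 6, 2.31-fold under its WT partner, and a higher floor at the 60th percentile reduced the log2 difference from -1.21 to -0.68. Its second probe set was lower in all 3 KO arrays (-0.30, -0.56 and -0.51, the last with the KO array under the floor). Ccl28, an epithelial ligand of Ccr10, went from 152 to 72.3 in brown fat and from 332.5 to 169 in epididymal fat, but from 107 to 167 in subcutaneous fat. Its other 2 probe sets lay mostly under the floor, and the mean of all 3 gave -0.03 in brown fat, where median centring gave -0.94.

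Just inside the 2-fold limit in epididymal fat were Ccl7 (1.04) and Cxcl13 (-1.07), and just outside it were Ccl25, at least 1.99-fold higher, and Ccl28, 1.97-fold lower. In subcutaneous fat Ccl25 (1.05) was just inside while the Ccr4 ligand Ccl17 (0.97) and the gut-homing receptor Ccr9 (-0.99, 362 to 182) were just outside. In brown fat Ccl28 (-1.08) was just inside, with Cxcl12 (-0.96) and the atypical receptor Ackr1 (-0.94) just outside.

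Ligands of neutrophils had higher signals in the white KO arrays. Cxcl1, a ligand of Cxcr2, had signals of 335 and 472 in epididymal, 194 and 367 in subcutaneous, and 222 and 174.5 in brown fat. Cxcl2, its neighbour on chromosome 5, read 46.8 and 85.4, then 23.6 and 63.8, then 39.5 and 29.4, so only the white KO arrays were above the floor. By these probe sets neither difference reached 2-fold after the floor, but another Cxcl1 probe set read 135 and 307 in epididymal fat (1.19), 114 and 181 in subcutaneous and 86.7 and 62.9 in brown fat. In subcutaneous fat Cxcl2 was not above the floor under either other scaling. Cxcr2 itself was above the floor on the subcutaneous WT array alone (74.5). Neutrophil markers summed to 976 and 2164 in epididymal and 966 and 1947 in subcutaneous fat, most of it S100a8, and to 479 and 408 in brown fat. The other markers were mixed. In epididymal fat Elane was higher (19.5, under the floor, and 82.1), Csf3r (125 and 113) and Mpo (75.0 and 66.5) were lower, and S100a9 was under the floor. In subcutaneous fat S100a9 and Mpo were higher, Csf3r was lower (146 and 106) and Elane was under the floor. The part of neutrophils in the Cxcl1 and Cxcl2 values was not tested.

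Interferon-induced ligands of Cxcr3 did not share that pattern. Cxcl9 had signals of 1738 and 1281 in epididymal, 1941 and 1976 in subcutaneous, and 971 and 876 in brown fat. Cxcl10 had 119 and 94.2, then 186 and 302, then 145.5 and 76.2. Both were lower in the KO array of epididymal and brown fat and higher in that of subcutaneous fat, within 2-fold by these probe sets, except that after median centring Cxcl9 was lower in all 3 KO arrays. The second Cxcl9 probe set read 390 and 163 in epididymal fat (-1.26), 275 and 470.05 in subcutaneous fat (0.77), and 208 and 210 in brown fat (0.01). Their receptor Cxcr3, of activated T cells, had 168 and 156, then 366 and 525, then 126 and 78.2, and its small epididymal difference changed sign under both other scalings.

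Across depots the KO over WT signs of the set followed one arrangement more often than those of all genes, a pattern noticed after the values were seen and given as a description. Of 33 genes of the set measured in all 3 depots, 11 (33.3%) were higher in the KO array of epididymal fat and lower in that of subcutaneous and brown fat, against 9.03% of 12156 genes. They were the ligands Ccl6, Ccl8, Ccl9, Ccl11, Ccl12 and Cxcl12 and the receptors Ackr1, Ackr3, Ccr1, Ccr2 and Ccr10. The share was 36.4% after quantile normalization and 42.4% after median centring, against 9.37% and 12.6% of all genes. Ccr10 lay near the floor, with 48.6 and 67.2, then 65.4 and 54.5, then 80.6 and 53.6. It was not measured in all 3 depots after median centring. Further probe sets of Cxcl12 (-0.48) and Ccr2 (-0.21) were lower in the epididymal KO array, and that of Ccl9 (0.03) was higher in the brown one. The second probe set of Ccl6 and another of Ccr2 kept all 3 signs. All 7 macrophage markers measured in the 3 depots had this arrangement, and 6 of 7 did under either other scaling. Their part was not tested, and with 1 array per group the difference between depots has no test.

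Ccl6 and Ccl9, mouse ligands of Ccr1 made by macrophages, show the arrangement. Ccl6 had signals of 7296 and 9009.7 in epididymal fat, 9649 and 6469.9 in subcutaneous fat, and 1397 and 1133 in brown fat. Ccl9 had 5135 and 7109, then 6340.0 and 4439, then 779 and 607, and its second probe set gave 0.93, -0.37 and 0.03 on the log2 scale beside 0.47, -0.51 and -0.36. Their receptor Ccr1 had 474 and 566, then 507 and 292, then 77.4 and 50.1. In all 3 genes the white arrays were far above the brown ones, and by the brightest probe sets the WT and KO arrays of a depot differed by less than 2-fold. The second Ccr1 probe set read 97.5 and 114 in epididymal fat but 132 and 40.6, under the floor, in subcutaneous fat, a log2 difference of -1.06 after the floor.

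The next most frequent arrangement, higher in both white KO arrays and lower in the brown one, held Ccl2, Ccl4, Ccl17, Ccl25, Cxcl1, Cxcl14 and Cxcl16. These were 7 of 33 (21.2%) against 13.4% of all genes, and 3 of 33 (9.09%) against 7.47% after median centring. Ccl4 differed by only 0.001 in epididymal and 0.03 in subcutaneous fat on the log2 scale. The second probe sets of Ccl25 and Cxcl16 were lower in both white KO arrays. A further 5 (Ccl28, Cx3cl1, Cxcl9, Cxcl10 and Cxcr3) were higher in the subcutaneous KO array alone, 15.2% against 12.8%. Higher in all 3 KO arrays were Cxcl17 and Cxcr4, 6.06% against 16.2% of all genes. Lower in all 3 were Cxcl13 (by its brightest probe set) and the receptor Ccr6, 6.06% against 17.2% of all genes. Of these, Ccr6 was higher in the epididymal KO array after median centring. Cxcr4, the Cxcl12 receptor of blood and stem cells, had signals of 215 and 373 in epididymal, 618 and 747 in subcutaneous, and 56.0, under the floor, and 104 in brown fat. Cxcl12 itself read 2694 and 3922, then 6010.5 and 5397.5, then 1275 and 658, and a second bright probe set was lower in the KO array of each depot (-0.48, -0.20 and -0.06).

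Over depots, no chemokine or receptor passed the test for genotype. A limma fit that included the depot tested 37 of the 54 genes and 13232 genes in all, and 0 of 37 and 0 of 13232 had an adjusted p under 0.05 (0% called in either direction). In that fit the depots stand in for replicates, so p measures how alike the depot differences are and not the spread between mice. At an unadjusted p under 0.05, Ccl25, Cxcl17 and Cxcr4 were higher and Cxcl13 was lower, beside 501 genes higher and 602 genes lower in all. The smallest limma adjusted p in the set was 0.51, of Cxcr4, with a log2 difference of at least 0.59 ± 0.15 (SE). With an intensity trend in the variance, limma called 19 genes higher and 14 lower but again 0 of the set. For Ccl2 the difference over depots was 0.36, with a 95% interval from -0.37 to 1.09.

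Brown fat had lower signals than white fat for most chemokines and receptors. In limma over the 6 arrays, with 2 brown against 4 white ones, 25 of 37 tested genes were lower in brown fat, against 31.0% of all genes, and 4 were higher, against 21.6%, at an adjusted p under 0.05. By role these were 15 ligands and 10 receptors lower, and 3 ligands and 1 receptor higher, of 24 ligands and 13 receptors tested. The fit took genes above the floor on 3 or more arrays. A gene could thus enter through white arrays alone, but never through the 2 brown arrays alone. Among the 25 were 4 (Ccl7, Ccl24, Cxcr5 and Cxcr6) with both brown arrays at or under the floor. In the fit their brown values were the same floor value, so their p does not measure spread in brown fat. The median log2 difference over the 37 was -1.22, beside -0.11 over all genes. For 22 of the 37 all 4 white arrays lay above both brown arrays, against 34.9% of all genes, and for 4 (Ackr3, Ccl4, Ccl25 and Ccl27a) all lay below, against 26.1%. Quantile normalization moved the median of all genes to -0.01, and the set then lay at -1.12 relative to it.

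The ligands Ccl8, Cxcl13, Ccl24 and Ccl9 had the largest differences among the tested genes. Ccl8 was 11.3-fold lower in brown than in white fat (log2 difference -3.50 ± 0.27 SE, limma adjusted p = 0.000667), and its highest brown signal of 518 compares with a lowest white one of 2128. Cxcl13 was 9.57-fold lower (limma adjusted p = 0.000522). Ccl24, an eosinophil attractant that acts through Ccr3, had signals of 672 and 497 in epididymal and 509.9 and 599 in subcutaneous fat but 20.2 and 23.2, under the floor, in brown fat, so it was at least 8.95-fold lower (limma adjusted p = 0.000437). Ccl9 was 8.24-fold lower (limma adjusted p = 0.000686) and Ccl6 6.36-fold. For these ligands the white and brown arrays did not overlap.

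Among receptors, Ccr2 was 6.99-fold lower in brown fat (limma adjusted p = 0.00119), Ccr1 at least 6.38-fold and Cxcr4 at least 5.42-fold, each with all white arrays above both brown ones. The Ccr2 fold is that of its brightest probe set, and the gap was smaller on others. One read 380 to 441 in white and 228 and 156 in brown fat. Another read 174 to 220 in white against 129 and 44.3, under the floor, in brown fat. Cxcl12, the Cxcr4 ligand of stromal cells, was 4.70-fold lower and Ackr2, which clears inflammatory CC chemokines, 4.15-fold. Both folds depend on the probe set: the second bright one of Cxcl12 read 1860 to 2602 in white and 1129 and 1176 in brown fat, and the mean of all probe sets gave -0.80 on the log2 scale for Cxcl12 (limma adjusted p = 0.0363) and -1.06 for Ackr2 (limma adjusted p = 0.0612, no longer called). Ccl11, the eosinophil attractant eotaxin, had signals of 2622 and 3289 in epididymal, 2703 and 2175 in subcutaneous, and 855 and 642 in brown fat, 3.60-fold lower in brown. Ccl7 was at least 3.86-fold and Ccl2 2.43-fold lower. The eosinophil receptor Ccr3 was under the floor on every array, as were the eosinophil markers Siglecf and Epx. Of the other eosinophil markers, Il5ra was above it in subcutaneous fat alone (108 and 82.6), and Prg2 read 68.0 and 68.7 in subcutaneous and 104 and 83.5 in brown fat.

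The other genes called lower in brown fat were the ligands Ccl5, Ccl12, Ccl17, Ccl22, Cxcl9 and Cxcl16 and the receptors Ackr1, Ccr6, Cx3cr1, Cxcr3, Cxcr5 and Cxcr6, with log2 differences from -2.75 (Ccl5) to -0.59 (Cx3cr1, a lower bound in size). For Ccl22 and Cx3cr1 the brown arrays overlapped the epididymal ones, and for Ccr6 both brown arrays lay above both epididymal ones, so the lower value of these 3 rested on subcutaneous fat. That of Cxcr6 rested mostly on it too, with 61.3 and 69.8 in epididymal, near the floor, and 396 and 355 in subcutaneous fat. Ackr4, Ccl4, Ccl28, Ccr10, Cx3cl1, Cxcl1, Cxcl10 and Cxcl14 were not called in either direction. Macrophage markers summed to 6978 and 8841 in brown against 35893 to 46615 in white fat, and adipose stroma markers to 5058 and 6706 against 22468 to 39847. Their part in the depot differences was not tested.

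The 4 genes higher in brown fat were Ackr3, Ccl25, Ccl27a and Cxcl17. Ackr3, which removes Cxcl12, had signals of 3798 and 5084 in epididymal, 3847 and 3198 in subcutaneous, and 11185 and 8719.7 in brown fat. It was 2.52-fold higher there (log2 difference 1.33 ± 0.20 SE, limma adjusted p = 0.00463), with both brown arrays above all white ones, while Cxcl12 was lower on the same arrays. Ccl27a, a T cell attractant of skin that acts through Ccr10, was 2.29-fold higher (limma adjusted p = 0.00209), with 472, 382, 284 and 275 in white and 762 and 819 in brown fat. Ccl25 was at least 2.87-fold higher by its brighter probe set, and the other read 218 and 206 in brown against 60.3 to 109.7 in white fat. Cxcl17 was higher by at least 0.85 on the log2 scale, but its brown WT signal of 129.6 lay under the subcutaneous KO signal of 163.

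**Figure D4:**
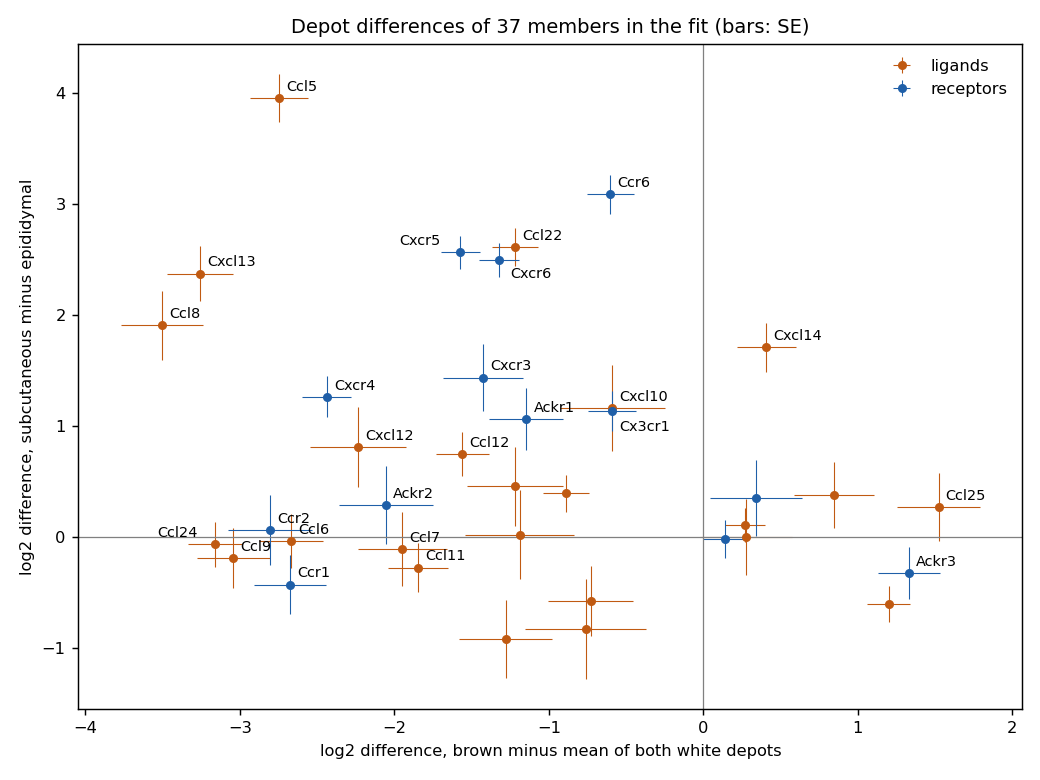
Limma log2 differences of the 37 tested genes, brown minus the mean of both white depots (x) against subcutaneous minus epididymal (y), with SE bars, ligands in orange and receptors in blue. Most points lie left of 0, and Ccl5 (3.96), Ccr6 (at least 3.09) and Ccl22 (at least 2.61) are the highest.

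Between the white depots, 10 chemokine and receptor genes were higher in subcutaneous fat. In limma, 10 of 37 tested genes were higher there than in epididymal fat, against 3.88% of all genes, and 0 were lower, against 1.16%, with 2 below at an unadjusted p under 0.05. The 10 were the ligands Ccl5, Ccl8, Ccl22, Cxcl13 and Cxcl14 and the receptors Ccr6, Cx3cr1, Cxcr4, Cxcr5 and Cxcr6, and in each both subcutaneous arrays lay above both epididymal ones. Without the epididymal WT array 4 genes were called, without the epididymal KO array 5, and with the floor at the 20th percentile 5, all higher. Centring arrays on their medians lowered the median of all genes from 0.00 to -0.33 and called 11 of the set higher and 4 lower (Ccl2, Ccl27a, Ccl28 and Cxcl1), where 514 genes in all were higher and 1379 lower in place of 513 and 154.

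Ccl5, which recruits T cells and monocytes, showed the widest gap among the 37 tested genes. Its signals were 269 and 256 in epididymal, 4762 and 3495 in subcutaneous, and 139 and 171 in brown fat, 15.5-fold higher in subcutaneous than epididymal fat (log2 difference 3.96 ± 0.21 SE, limma adjusted p = 0.00316). Ccl22, a Ccr4 ligand of dendritic cells, was at least 6.12-fold higher (limma adjusted p = 0.00441), with 27.8 and 70.9 against 437 and 384. Cxcl13 was 5.19-fold and Ccl8 3.75-fold higher (limma adjusted p = 0.0115 and 0.0374). Cxcl14, a homeostatic chemokine of epithelium and fat, had 174.5 and 201, then 478 and 785, then 460.0 and 439, 3.27-fold higher in subcutaneous than in epididymal fat and its brown signals lay between the depots.

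Among the receptors, Ccr6, of B cells and memory T cells, had signals of 65.4 and 60.6 in epididymal, 582 and 514 in subcutaneous, and 149 and 103 in brown fat, at least 8.52-fold above epididymal fat in the subcutaneous depot (limma adjusted p = 0.00322). Cxcr5, the Cxcl13 receptor of follicular B cells, was 5.93-fold higher (84.9 and 70.0 against 473 and 441) and Cxcr6, of resident T and natural killer cells, at least 5.64-fold. Cxcr4 was higher by 1.26 and Cx3cr1, of monocytes and macrophages, by 1.13 on the log2 scale. Ccr7, which brings T cells and dendritic cells into lymph nodes, was above the floor in subcutaneous fat alone, with 941 and 876 there, 31.2 and 36.0 in epididymal and 10.8 and 19.2 in brown fat. Its signal exceeded the floor on too few arrays for the fit. When genes above the floor on at least 1 array were tested, Ccr7 (at least 14.4-fold), Ccr9 and Xcl1 were called higher too. These genes were above the floor on both subcutaneous arrays alone, and all other arrays held the same floor value. They entered that fit only through the depot where they were high, so the calls lend the difference no support. Ccr7 was also called with a filter on the mean signal, passed through the same arrays, and with the floor at the 20th percentile. Its ligands Ccl19 and Ccl21, on probe sets that the platform annotation gives several symbols, were not analysed here.

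**Figure D5:**
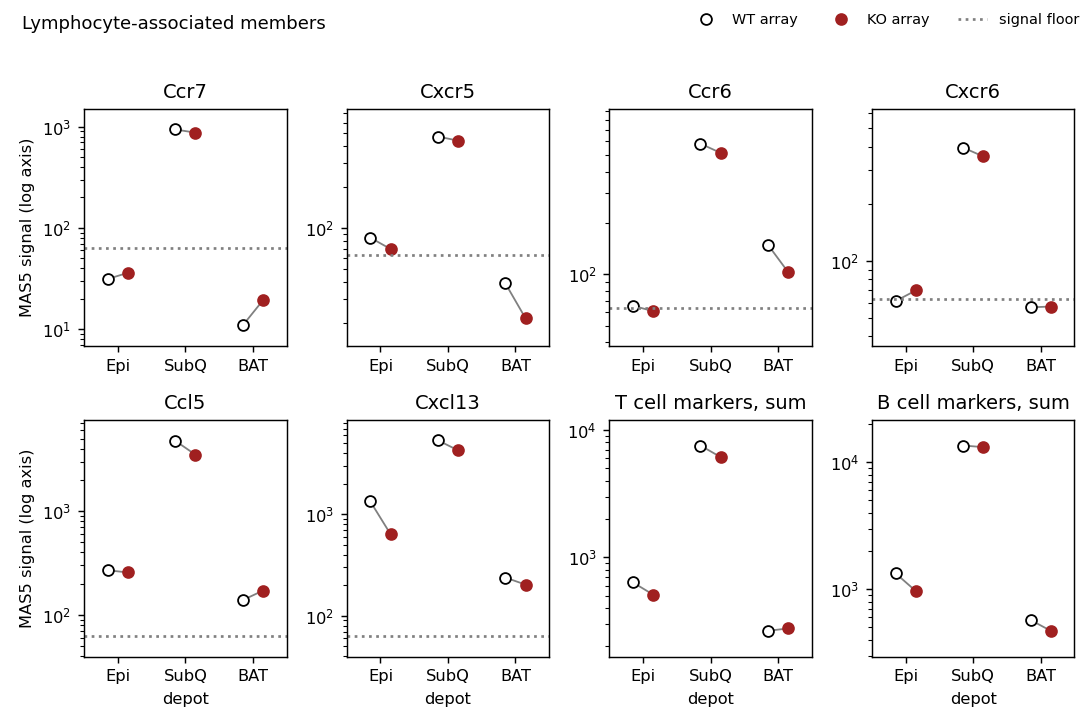
Signals of Ccr7, Cxcr5, Ccr6, Cxcr6, Ccl5 and Cxcl13 and the summed signals of T cell and B cell markers, on log axes, for WT (open) and KO (filled) arrays of each depot, 1 array per point, with the floor of 63.2 dotted. In all 8 panels both subcutaneous points are the highest, with Ccr7 at 941 and 876 and the other depots under the floor.

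Lymphocyte markers were also highest in subcutaneous fat. The 7 T cell markers on the array summed to 634 and 508 in epididymal, 7553 and 6128 in subcutaneous, and 264 and 276 in brown fat, and all 7 were above the floor on both subcutaneous arrays. The 6 B cell markers summed to 1335 and 967, then 13531 and 13141, then 572 and 470.2. Markers of lymph node vessels and stroma summed to 3979.5 and 1708 in subcutaneous fat against 124 to 328 elsewhere, and Glycam1, a ligand gene of lymph node vessels, was at 2687 and 698 there and under the floor on the other 4 arrays. Chst4 of the same list went the other way, with 151 and 194 in epididymal against 31.4 and 70.9 in subcutaneous fat. Their part in the subcutaneous values was not tested.

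Genes that relay chemokine signals inside cells were also lower in brown fat on balance, with a median log2 difference of -1.07 beside -0.11 over all genes. Of 36 relay genes listed, among them G protein subunits, kinases, arrestins and Rgs inhibitors, 32 were tested, and limma called 19 lower and 6 higher in brown than in white fat, against 31.0% and 21.6% of all genes. Dock2, which links chemokine receptors to the motility switch Rac, had a difference of -3.68 on the log2 scale (a lower bound in size), Prkcb of -2.96, Was of -2.68 and Rac2 of -2.29. Grk3, a kinase that switches off receptors, was higher by 2.56 and Rgs2, an inhibitor of G protein signals, by 1.69. In subcutaneous against epididymal fat 7 were higher (Rac2, Prkcb, Was, Dock2, Rgs1, Vav1 and Pik3cg) and 0 lower, against 3.88% and 1.16% of all genes, with 1 lower when p was not adjusted. For genotype limma called 0 of 32, and 2 genes were lower and 0 higher at an unadjusted p under 0.05, beside 602 and 501 of 13232 in all. By size, Plcb2 was 2.10-fold higher in epididymal and at least 2.41-fold higher in subcutaneous KO fat, and Rac2 and Rgs2 were 2.09-fold and 2.25-fold lower in brown KO fat.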

How the data were processed

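The data are intensity values of 6 Affymetrix arrays (total RNA, biotin label), 1 per probe set and array. The authors made the deposited intensity values with MAS5 in Affymetrix Expression Console, per the submitters' processing notes. No version is given in the sources used. MAS5 treats each array alone and scales it to a common brightness (2%-trimmed mean of 500.0), so changes in total RNA per cell are invisible and dim probe sets are noisy. Names came from the platform annotation, for probe sets with 1 symbol, checked by gene identifier against RefSeq (GRCm38.p6). A further 4 probe sets, with several symbols that include a chemokine or receptor of the rule, were not used.

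The chemokine genes, marker lists and pathway lists were chosen with earlier results of these data known. Signals were raised to a floor (40th percentile of non-control probe sets, 63.2) and put on the log2 scale. A gene counted as measured in a depot with 1 or both arrays above the floor, and differences were counted from 2-fold. limma 3.58.1 (R 4.3.3) was fitted with depot and genotype to the 13232 genes that exceeded the floor on 3 or more arrays, using Benjamini-Hochberg adjustment at 0.05; it was tested on simulated data. Python 3.11.15 with numpy 2.4.6, pandas 2.3.3 and matplotlib 3.10.9 did the rest. Named in full are Ccl2, Ccl7, Ccr2, genes past 2-fold, the brightest, those with the largest depot differences, and those whose probe sets disagree. Alternatives were quantile normalization, median centring, a lower and a higher floor (20th and 60th percentile), averaging the probe sets of each gene, omitting cross-hybridising probe sets, thresholds of 1.5-fold and 3-fold, list means, 2 other filters, an intensity trend, and leaving out each array or depot. The array number limits the precision of all values.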

Additional observations from a re-analysis of the deposited data

How the results depend on the processing

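No paired analysis was possible because each depot and genotype had 1 array and the labels carry no replicate numbers. Counts past 2-fold depended on the floor and threshold. In epididymal fat 3 became 8 with the floor at the 20th percentile, 8 at 1.5-fold and 0 at 3-fold. In subcutaneous fat 3 became 8 with the floor at the 20th percentile, 1 at the 60th, 13 at 1.5-fold and 0 at 3-fold. Centring lost Cxcl13 in epididymal fat, both other scalings lost Ccl25 in subcutaneous fat, and leaving out cross-hybridising probe sets lost Ackr4 there (-0.70). Both other scalings added Ccl25 (higher) in epididymal and Ccr9 (lower) in subcutaneous fat. Leaving out cross-hybridising probe sets added Cxcl1 (higher) in epididymal fat. The mean of all probe sets added Ackr2 and Ccr1 (lower) in subcutaneous fat. In brown fat 2 became 1 after median centring (without Ccl28), 9 and 0 with the floor at the 20th and 60th percentiles, 1 with the mean of all probe sets, 12 at 1.5-fold and 0 at 3-fold. The limma count for subcutaneous against epididymal fat went from 10 to 5 with the floor at the 20th percentile, where 3 of the 10 were still called, and ranged from 4 to 10 with 1 array left out. In brown against white fat it was 29 and ranged from 23 to 31 with 1 array left out, the lowest without the brown KO array. For genotype the count was 0 under each alternative run. The medians of ligands and receptors moved by less than the SD between probe sets, and no called direction was reversed among the alternatives run, although the near-zero ligand median of subcutaneous fat changed sign with the scaling. Over single genes and alternatives, a depot call was lost in 61 combinations and a 2-fold KO over WT value moved by more than that SD in 5, and the cause was not tested. With 1 array left out, the lone array of that depot was assumed to vary like the others.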

Other observations

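Cytokines and regulators known to induce chemokines, and proteins related to chemokines but named otherwise, were also read. Of 25 listed cytokines and regulators, 17 were tested, and limma called 11 lower and 1 higher (Il17a) in brown than in white fat, against 31.0% and 21.6% of all genes. Il33, an alarm cytokine of stromal cells, had a log2 difference of -2.93, Csf1, the macrophage growth factor gene, of -2.41, Tslp of -2.08 (a lower bound in size) and Tnfaip3, an inhibitor of NF-kappaB signalling, of -1.95. Relb, Rel, Irf1 and Irf7 were higher in subcutaneous than in epididymal fat, 4 of 17 against 3.88% of all genes. Il6, Ifng, Il13 and Il1a were under the floor on all 6 arrays. For genotype limma called 0 of 17, and at an unadjusted p under 0.05 only 1 (Irf7) was lower and 0 higher.

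Of the 8 relatives, limma called 4 lower in brown fat and 1 higher, the cytokine gene Mif, against 31.0% and 21.6% of all genes. Cmklr1, the receptor of the adipokine chemerin, had signals of 2501 and 2343 in epididymal, 1686 and 1756 in subcutaneous, and 160.4 and 125 in brown fat (log2 difference -3.85, limma adjusted p = 0.000435). Rarres2, which encodes chemerin, was 4.60-fold and the platelet chemokine gene Pf4 3.39-fold lower. Ppbp, another platelet chemokine gene, went from 209 to 109 in epididymal and from 187 to 84.7 in subcutaneous KO fat, and from 145 to 172 in brown fat.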
